A study of Mus musculus with 70 samples.

Results

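The tail-vein lung signature of the study is a set of genes that rose in RENCA cells passaged through the tail vein into the lung, and 9 of its genes are described here: *Pigz*, *Gfpt2*, *Kdelr3*, *Ckap4*, *Ncam1*, *Rgs19*, *Nme4*, *Kctd17* and *Tmem45a*. These 9 genes, of 21154 genes with a named probe, were read from 13 of 55681 probes. Each is given by its brightest probe on average. They were chosen by the study on the tail-vein samples themselves, by a large rise from P0 to P6 that built up over P2 to P6, and then by a link to patient survival. Their tail-vein levels at P0 and P2 to P6 are therefore a description without a test. Tests are given at P1, which the study left out, and along the kidney routes. All 9 genes are outside the study's kidney tumour signature, and all but *Kctd17* outside its kidney-to-lung one. The same rules picked those signatures on those routes, so the kidney-route tests are not fully independent of the membership. *Kctd17* is also in the study's kidney-to-lung signature, so its kidney-to-lung values are a description too.

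The cells were RENCA, a mouse renal adenocarcinoma line from BALB/c mice, made to express GFP from a lentiviral vector. P0 is the parental line in culture (2 RNA samples). P1 to P6 are the rounds of passage through wild-type female BALB/c mice, in which cells were recovered, grown in culture and injected again. In KPT, cells were placed under the kidney capsule and recovered from the kidney tumour (5, 2, 2, 3, 5 and 5 samples at P1 to P6). In T-LM, cells were injected into the tail vein and recovered from lung metastases (5, 2, 3, 4, 6 and 4 samples). In K-LM, cells were placed under the kidney capsule and recovered from lung metastases (1, 1, 5, 3, 4 and 3 samples). The mice are immunocompetent, and host cells were left to die off in culture rather than sorted away, per the study's methods. The study reports culture until no GFP-negative cells were found. It checked purity by microscopy or flow cytometry and describes it as equivalent to that of the parental cells. The labels describe the material as kidney tumours and lung metastases and its homogenisation with a tissue homogeniser. Whether samples of 1 group came from separate mice in every case is not given in the sources used here, so the p-values measure the spread between these samples.

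The 9 proteins have differing roles. *Pigz* encodes a mannosyltransferase that adds a side-chain mannose to glycosylphosphatidylinositol (GPI), the lipid that anchors many surface proteins. *Gfpt2* encodes glutamine-fructose-6-phosphate transaminase, the entry step of the hexosamine pathway that supplies sugars for glycosylation. *Kdelr3* encodes a receptor that returns proteins with a KDEL tail from the Golgi to the endoplasmic reticulum. *Ckap4* encodes a membrane protein of the rough endoplasmic reticulum that also serves as a surface receptor for Dkk1. *Ncam1* encodes a neural cell adhesion molecule. *Rgs19* encodes a regulator of G-protein signalling that speeds the shut-off of inhibitory G proteins. *Nme4* encodes a mitochondrial nucleoside diphosphate kinase, *Kctd17* an adaptor of cullin 3 ubiquitin ligases, and *Tmem45a* a transmembrane protein.

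Of the 9 genes, 7 had at least 1 promoter in the RefSeq table of build GRCm38.p6 (9 promoters, each 250 bases before and 50 after a transcript start). The 3 shown are those of *Pigz*, which followed a course of its own, and of *Kdelr3* and *Gfpt2*, which moved with the other 6. Sequences run 5′ to 3′ on the gene's strand, and capitals mark a match to a searched motif.

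*Kdelr3*, chr15:79516158-79516457, + strand: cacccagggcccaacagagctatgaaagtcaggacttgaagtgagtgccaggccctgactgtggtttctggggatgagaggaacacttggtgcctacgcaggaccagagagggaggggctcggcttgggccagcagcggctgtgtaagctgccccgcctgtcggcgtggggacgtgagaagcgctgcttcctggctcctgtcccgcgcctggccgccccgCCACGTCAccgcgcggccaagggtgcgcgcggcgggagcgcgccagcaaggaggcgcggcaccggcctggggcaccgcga
*Gfpt2*, chr11:49793905-49794204, + strand: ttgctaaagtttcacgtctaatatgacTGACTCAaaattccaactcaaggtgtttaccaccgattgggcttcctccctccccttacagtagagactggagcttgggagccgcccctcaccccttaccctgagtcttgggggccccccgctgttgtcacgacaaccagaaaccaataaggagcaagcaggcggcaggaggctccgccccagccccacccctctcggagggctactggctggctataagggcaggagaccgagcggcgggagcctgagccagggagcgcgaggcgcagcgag
*Pigz*, chr16:31933601-31933900, + strand: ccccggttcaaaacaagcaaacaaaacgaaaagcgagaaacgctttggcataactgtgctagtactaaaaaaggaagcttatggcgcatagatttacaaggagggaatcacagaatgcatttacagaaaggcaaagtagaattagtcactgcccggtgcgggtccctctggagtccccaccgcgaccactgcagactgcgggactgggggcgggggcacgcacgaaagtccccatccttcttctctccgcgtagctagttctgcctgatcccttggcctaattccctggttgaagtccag

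The letters searched, on either strand and with no match overlapping another, were TGACGTGG (an element known from genes of the unfolded protein response), TGACGTCA, TGACTCA (the AP-1 motif), CACGTG and TATAAA. *Kdelr3* held TGACGTGG, read from the other strand, starting 30 bases before the transcript start, and 0.676% of all 32851 promoters held it. *Gfpt2* held TGACTCA 223 bases before its start, as did 5.2% of promoters, and 1 of 3 *Rgs19* promoters held CACGTG, as did 7.15%. The *Pigz* window held none of the 5 motifs. TGACGTCA and TATAAA were in 0 of the 9 promoters, against 1.79% and 13.6% of all promoters. A match of this kind describes the letters and is not a measured binding site.

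Levels are log2 of the processed signal relative to the 75th percentile of commonly detected probes of the same array, so that 0 is a bright probe and values near -8 to -9 are the dim end. The scanner software calls a probe well above background or not, and levels below that call carry no order. None of the 9 genes was well above background in either P0 sample. Of the 65 RNA samples, *Kctd17* was well above background in 43, *Kdelr3* in 37, *Tmem45a* in 36, *Ncam1* in 32, *Nme4* in 29, *Rgs19* in 28, *Gfpt2* in 26, *Ckap4* in 25 and *Pigz* in 23. No member was saturated on any array. The share of gene probes that passed this call ranged from 25.2% to 55.2% of those on an array. The kidney lineage of the cells was only partly visible: *Pax8*, *Krt8* and *Krt18* were well above background at P0, while *Pax2*, *Cdh16*, *Epcam* and *Lrp2* were not. The 5 repeat arrays (P0 and 3 of the KPT P6 samples) and all K-LM P6 arrays lie on 1 slide scanned later with another software version, called the late slide here, and fits that mix it with other slides carry a term for it.

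**Figure D1:**
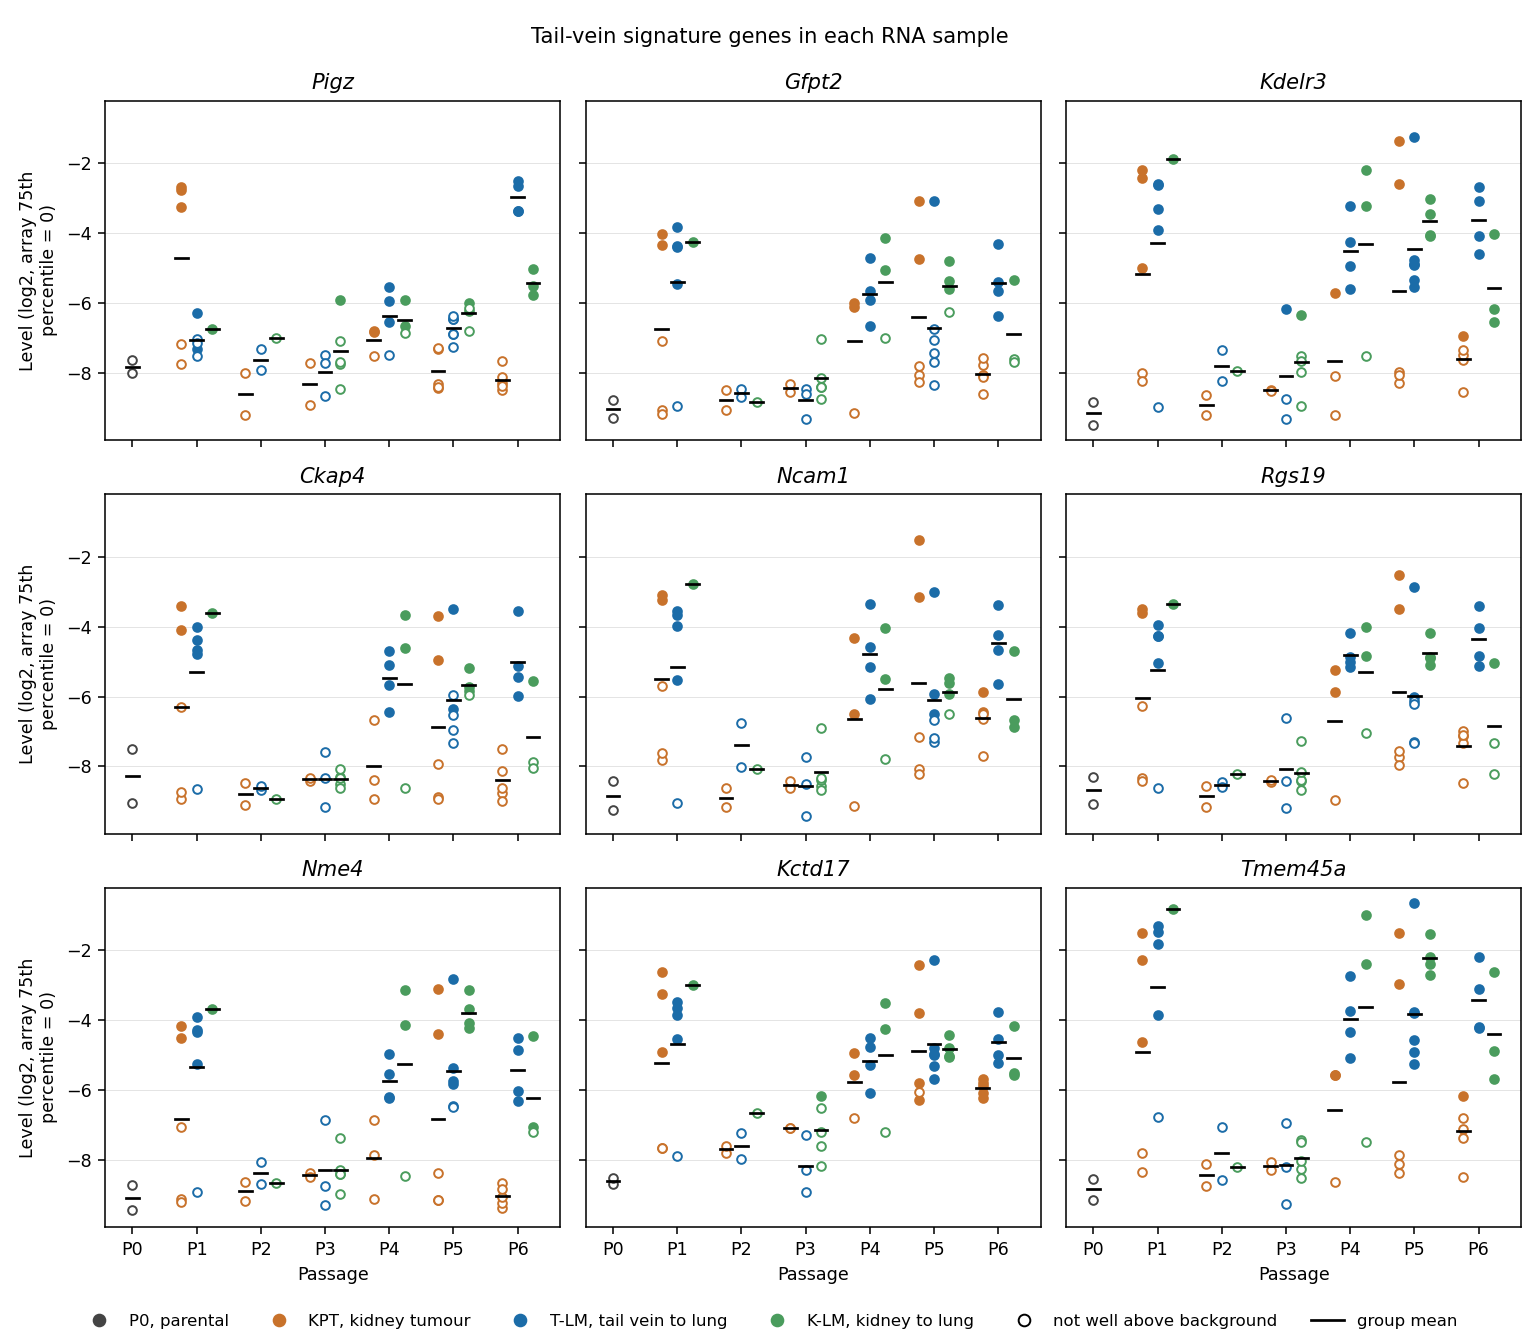
Level of each gene (log2, array 75th percentile set to 0) against passage, with 1 point per RNA sample, coloured by route; open points were not well above background and black bars are group means. Except for *Pigz*, the genes sit high at P1 in 4 of 5 T-LM samples and in 2 or 3 of 5 KPT samples. They are not above background at P2 and P3 apart from single samples of *Kdelr3* and *Kctd17*. At P4 they are above it again in all 4 T-LM and 2 of 3 K-LM samples. In KPT P4, *Tmem45a*, *Ncam1*, *Kctd17*, *Rgs19* and *Gfpt2* are above it in 2 of 3 samples and *Kdelr3* in 1. KPT P6 points are mostly open except for *Kctd17*. *Pigz* is high in 3 KPT P1 samples and again in all 4 T-LM P6 samples.

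Over the tail-vein route, 8 of the 9 genes followed one course, and it was not a steady climb. They were already high at P1, dim at P2 and P3, high again at P4 and high at P6. At P5 they parted: *Tmem45a*, *Kdelr3* and *Kctd17* were well above background in 6 of 6 samples and *Nme4* in 4, but *Ncam1* in 3, *Rgs19* and *Ckap4* in 2 and *Gfpt2* in 1. *Tmem45a* gives an example. At P1 it stood at -1.30, -1.49, -1.83 and -3.86 in 4 T-LM samples and at -6.77, not well above background, in replicate 1. Replicate 1, placed in T-LM P1 by labels other than its title, was dim for all 8 genes. At P2 *Tmem45a* was at -7.05 and -8.58, and at P3 at -6.94, -8.20 and -9.27, with no sample well above background at either passage. At P4 it was at -2.74, -3.75, -4.33 and -5.08, so all 4 samples lay above all 5 of P2 and P3. At P5 it ran from -5.25 to -0.65 with a median of -4.18, and at P6 it was at -2.20, -3.11, -4.20 and -4.23.

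*Kdelr3* traced the same course. Its 4 bright T-LM P1 samples were at -2.59, -2.62, -3.32 and -3.92, and replicate 1 was at -8.98. At P2 it was at -7.35 and -8.23, and at P3 at -6.16, -8.75 and -9.33, where the first value, replicate 5, was the only 1 of the 5 well above background. It then lay at -3.21, -4.26, -4.94 and -5.60 at P4, from -5.54 to -1.26 at P5, and at -2.69, -3.09, -4.09 and -4.59 at P6. Every sample from P4 on was brighter than every sample of P2 and P3, for this gene as for *Tmem45a*.

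After the fall from P1 to P2 (-2.22 for *Ncam1* to -4.77 for *Tmem45a*), the largest rise between neighbouring tail-vein passages was P3 to P4 for each of these 8 genes. The fitted log2 difference was 4.16 ± 1.07 (SE, 3 against 4 samples) for *Tmem45a*, 3.77 ± 1.04 for *Ncam1*, 3.58 ± 1.15 for *Kdelr3*, 3.27 ± 0.929 for *Rgs19*, 3.06 ± 0.993 for *Gfpt2*, 3.01 ± 0.801 for *Kctd17*, 2.89 ± 0.873 for *Ckap4* and 2.56 ± 0.919 for *Nme4*. After P4 the means of the 8 genes moved by -1.31 to 0.49 to P5 and by 0.03 to 1.63 from P5 to P6. The P4 samples of all 8 lay above the P3 samples without overlap. The share of all probes that did the same was not counted, so this only describes the 8 genes. From P0 to P1, with P0 not above background, the 8 genes were higher by at least 2.74-fold (*Gfpt2*) to at least 14.0-fold (*Tmem45a*).

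*Pigz* took another course. In T-LM it stood at -6.29 to -7.53 at P1, -7.33 and -7.91 at P2, and -7.49, -7.73 and -8.67 at P3. At P4 it was at -5.54, -5.93, -6.54 and -7.49, with the first 3 of these well above background, and at P5 it ran from -7.26 to -6.38 with no sample well above background. At P6 it was at -2.50, -2.66, -3.36 and -3.36, above every earlier T-LM sample. The step from P5 to P6 was 3.75 ± 0.334 (SE, 6 against 4 samples), whereas no earlier step exceeded 1.59 ± 0.395 (P3 to P4). *Pigz* was therefore the single gene of the 9 whose tail-vein rise came at the last passage.

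Against P0, the T-LM P6 levels were higher by 2.93 ± 1.12 (*Gfpt2*) to 4.87 ± 1.31 (*Kdelr3*) on the log2 scale, with *Pigz* at 4.70 ± 0.448. Because P0 was not above background, the fold is a lower bound: *Pigz* was at least 14.8-fold, *Tmem45a* at least 10.7-fold, *Kdelr3* at least 9.49-fold, *Rgs19* at least 5.71-fold, *Ncam1* at least 5.19-fold, *Kctd17* at least 4.69-fold, *Ckap4* at least 3.53-fold, *Nme4* at least 2.71-fold and *Gfpt2* at least 2.69-fold higher at T-LM P6. These bounds set the dim group at the lowest passing signal of each array. All 4 T-LM P6 samples lay above both P0 samples for 9 of 9 genes, which is what the choice asked for, and 24.6% of 21270 probes did the same.

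At P1, before the study's selection window, the routes could be compared with a test. Limma with Benjamini-Hochberg adjustment over 23548 probes called 0 of the 9 genes between T-LM and KPT (smallest adjusted p = 0.531, *Pigz*), and the whole contrast was nearly empty at 0.00425% of probes called, with 2125 probes at an unadjusted p under 0.05. Without T-LM P1 replicate 1, 19 of 23344 probes were called (2685 at an unadjusted p under 0.05) and still 0 of the 9 genes. All 9 genes passed the filter on dim probes. The kidney tumours were split. KPT P1 replicates 4 and 5 were as bright as the T-LM samples for the 8 genes, *Tmem45a* at -1.50 and -2.27 and *Kdelr3* at -2.19 and -2.43. Replicate 3 was between, at -4.62 and -5.01, and replicates 1 and 2 were at the dim end, at -8.34 and -7.79 for *Tmem45a* and -8.01 and -8.22 for *Kdelr3*. The single K-LM P1 sample was bright too, with *Tmem45a* at -0.83 and *Kdelr3* at -1.88. The group means differed by 0.34 ± 1.28 (*Ncam1*) to 1.85 ± 1.53 (*Tmem45a*) in favour of T-LM for the 8 genes, with 5 samples a route. Within the 2 slides that held both routes, 1 array each, the differences followed which samples were on them. On the first, whose KPT array was one of the dim ones, the T-LM array was higher by 3.80 to 6.51 for the 8 genes. On the other, with T-LM replicate 1 and a bright KPT array, the difference was -4.41 to -6.55.

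At P1 *Pigz* was higher in 3 of 5 kidney tumours than in any tail-vein sample. It stood at -2.68, -2.76 and -3.25 in KPT replicates 3, 5 and 4, as bright as in T-LM P6, against -7.16 and -7.74 in replicates 1 and 2. Its fitted T-LM minus KPT difference at P1 was -2.35 ± 1.01 (adjusted p = 0.531 in limma), so this did not pass the test. In the kidney tumour route it then fell: from a mean of -4.72 ± 2.51 (SD, n = 5) at P1 to -8.19 ± 0.317 (SD, n = 5) at P6, a fitted change of -3.42 ± 0.771 (limma, adjusted p = 0.0034) and at least 5.19-fold, since no KPT P6 array was above background. It was the only 1 of the 9 genes called in that contrast, in which 11.7% of 22029 probes were called. The call was lost without KPT P1 replicate 3, 4 or 5 in turn (limma, adjusted p = 0.0116, 0.0118 and 0.0109). The other 8 genes also had lower means at P6 than at P1 in KPT, by -0.73 ± 0.853 (*Kctd17*) to -2.56 ± 1.33 (*Kdelr3*), and none passed (smallest adjusted p = 0.163 in limma).

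From P3 to P6 in the kidney tumour route, 0 of the 9 genes were called in limma, against 1.43% of 22029 probes (4837 probes at an unadjusted p under 0.05). Fitted changes ran from -0.57 ± 1.45 (*Nme4*) to 1.89 ± 1.61 (*Ncam1*). With SEs of 1.02 to 1.80, changes as large as some of those described in T-LM were not detectable here; with P1 left out of the fit, 0 of the 9 were called too. *Kctd17* was the 1 gene well above background in all 5 KPT P6 samples, at -5.69 to -6.22, against 0 of 2 at P3, which is at least 1.43-fold. The kidney tumours shared part of the return at P4. There *Pigz*, *Tmem45a*, *Ncam1*, *Kctd17*, *Rgs19* and *Gfpt2* were well above background in 2 of 3 samples, *Kdelr3* in 1, and *Ckap4* and *Nme4* in 0. *Tmem45a* stood at -5.56, -5.57 and -8.63 in these KPT P4 samples. KPT P5 was again split: replicates 1 and 2 were bright, with *Ncam1* at -1.52 and -3.14 and *Tmem45a* at -1.51 and -2.98, while replicates 3 to 5 lay at -7.16 to -8.23 and -7.85 to -8.39. *Pigz* was not well above background in any of the 5.

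Along the kidney-to-lung route, 2 of the 8 genes tested (all but *Kctd17*) were called as higher at P6 than at P3, against 5.62% of 22775 probes called in either direction. *Pigz* rose by 2.19 ± 0.455 (limma, adjusted p = 0.0032), from -5.92 to -8.45 in the 5 P3 samples to -5.03, -5.51 and -5.78 at P6, so the groups did not overlap. *Tmem45a* rose by 4.08 ± 1.02 (limma, adjusted p = 0.0099), from -7.43 to -8.51 at P3 to -2.62, -4.89 and -5.69 at P6, at least 4.57-fold. Replicate 3 of K-LM P6 was the brightest of the 3 for all 9 genes, and without it neither gene was called (limma, adjusted p = 0.0208 and 0.0647). Without K-LM P6 replicate 1 neither was called either (0.0137 and 0.0257), and *Tmem45a* stayed called in 4 of 17 alternatives. *Ncam1* differed by 2.46 ± 0.707 (limma, adjusted p = 0.0202), outside the threshold of 0.01, and *Kctd17*, as a description, by 2.34 ± 0.631. The 8 genes had returned before P6 on this route as well: at P4, replicates 3 and 5 were bright (*Kdelr3* at -3.23 and -2.19) and replicate 1 was dim (-7.52), and at P5 *Kdelr3* (-3.03 to -4.07), *Nme4* (-3.15 to -4.22), *Tmem45a*, *Kctd17* and *Rgs19* were well above background in 4 of 4 samples, and *Ncam1*, *Ckap4* and *Gfpt2* in 3, replicate 3 being dim.

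At P5 the lung metastases of kidney origin and the kidney tumours differed in 1 of the 8 genes tested, with 7.37% of 19727 probes called. *Pigz* was higher in K-LM, at -5.99 to -6.81, than in KPT, at -7.28 to -8.42, by 1.66 ± 0.282 (limma, adjusted p = 0.0013), or at least 1.20-fold since no KPT P5 array was above background. Only 2 of the 4 K-LM P5 samples were above it, and no T-LM P5 sample, so *Pigz* entered this test only through the group in which it was high, and its call lends no support by itself. It was also called with no filter. Without K-LM P5 replicate 2 or 5 the gene no longer passed the filter on dim probes and had no test. Within the 2 slides that held both groups, 1 array each, K-LM was higher for all 9 genes, by 2.10 and 2.26 for *Pigz* and 5.99 and 5.41 for *Tmem45a*. On each of these slides the KPT array was among the dim KPT P5 samples, not the bright ones. With all samples the difference was -0.25 ± 1.25 for *Ncam1* and 0.04 ± 0.764 for *Kctd17*. *Tmem45a* (3.56 ± 1.32) and *Nme4* (3.05 ± 1.14) had large differences of means, but KPT replicate 1, at -1.51 and -3.10, was as bright as the brightest K-LM samples (limma, adjusted p = 0.0752 and 0.0782).

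At P6 the same comparison called 3 of the 8 genes tested, all higher in K-LM, with 15.3% of 22072 probes called. *Pigz* was at -5.03 to -5.78 in K-LM and -7.67 to -8.48 in KPT, a fitted difference of 2.95 ± 0.296 (limma, adjusted p = 1.689e-06) and at least 3.14-fold. *Nme4* was at -4.44, -7.05 and -7.19 in K-LM and -8.66 to -9.37 in KPT, a difference of 3.12 ± 0.606 (limma, adjusted p = 0.001) and at least 1.82-fold. *Tmem45a* was at -2.62, -4.89 and -5.69 against -6.16 to -8.48, a difference of 3.17 ± 0.690 (limma, adjusted p = 0.0024). *Pigz* stayed called in all 16 alternatives, *Nme4* in 14 and *Tmem45a* in 13, the last lost without K-LM P6 replicate 3 among others (limma, adjusted p = 0.0196). On the late slide alone *Pigz* remained called, and *Tmem45a* (2.95 ± 0.739, limma adjusted p = 0.0181) and *Nme4* (2.79 ± 0.691, 0.0174) did not, with differences near the main ones. *Kdelr3* (2.2 ± 0.627, limma adjusted p = 0.0151) was not called, although the groups did not overlap. The change from P3 to P6 was not shown to differ between K-LM and KPT for any of the 8 genes when tested as an interaction in limma (smallest adjusted p = 0.611, *Pigz*, 1.99 ± 0.990). That test called 78 of 26328 probes.

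**Figure D2:**
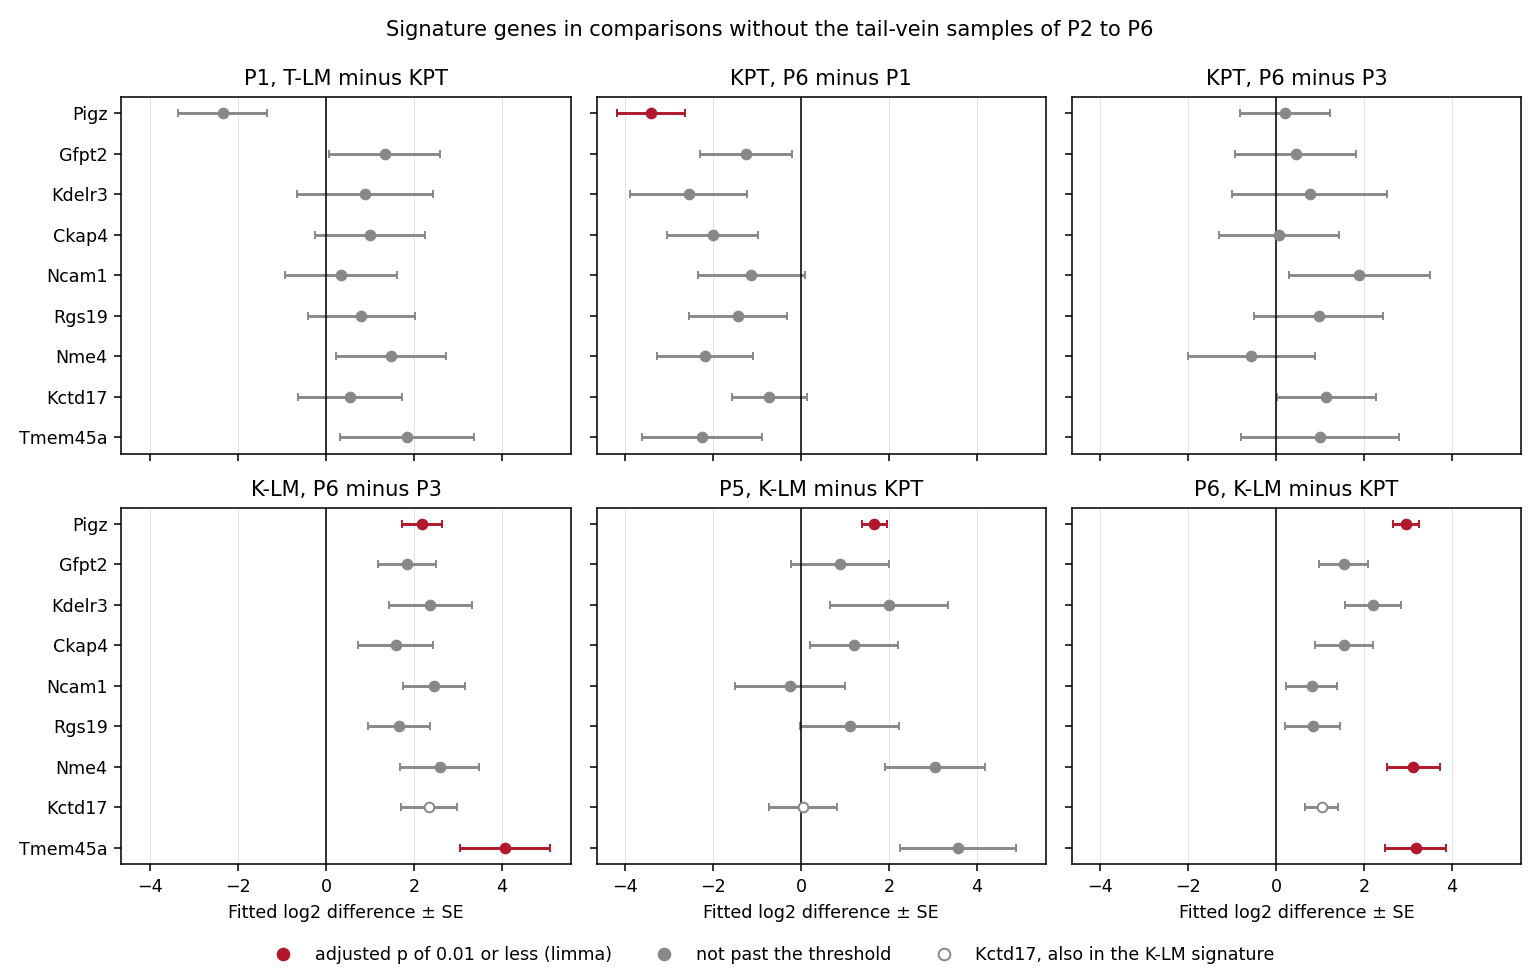
Fitted log2 difference with its SE for each gene in 6 comparisons, in red where the limma adjusted p was 0.01 or less; open circles mark *Kctd17* where K-LM is involved, as a description. *Pigz* is called in 4 panels, *Tmem45a* in 2 and *Nme4* in 1, and no gene is called between T-LM and KPT at P1 or from P3 to P6 in KPT.

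How far the genes were a mark of the tail route at P6 depended on the route it was set against. Against KPT, all 4 T-LM P6 samples were above all 5 KPT P6 samples for 9 of 9 genes, as for 11.5% of 21270 probes. The fitted differences ran from 1.20 ± 0.307 (*Kctd17*) to 5.16 ± 0.249 (*Pigz*, at least 17.4-fold), with *Kdelr3* at 3.91 ± 0.516, *Tmem45a* at 3.59 ± 0.574, *Nme4* at 3.42 ± 0.497 (at least 3.18-fold), *Ckap4* at 3.28 ± 0.549 (at least 4.18-fold), *Rgs19* at 2.98 ± 0.520, *Gfpt2* at 2.42 ± 0.454 (at least 3.16-fold) and *Ncam1* at 2.03 ± 0.483. Against K-LM, only *Pigz* had all T-LM P6 samples above all K-LM P6 samples, by 2.2 ± 0.347, whereas 25.3% of probes did so. For the other 8 the difference of means was 0.18 ± 0.428 (*Kctd17*) to 2.14 ± 0.724 (*Rgs19*), and K-LM replicate 3 lay within the T-LM range for 7 of them and above it for *Nme4*. The T-LM P6 means were the highest of the 3 routes for all 9 genes, an order that at P5 held for *Kctd17* alone. Between K-LM and KPT, *Rgs19*, *Ckap4* and *Gfpt2* have no order, being above background in 1 of 3 and 0 of 5 samples. These overlaps use levels without the late slide term, and all K-LM P6 arrays and no T-LM P6 array lie on that slide; the plain T-LM minus K-LM difference of means was 2.47 for *Pigz*, 0.80 for *Nme4* and 0.97 for *Tmem45a*, against fitted 2.2, 0.31 and 0.42. By the spread of the samples, T-LM and K-LM were separate for *Pigz* alone, and K-LM and KPT for *Pigz*, *Nme4*, *Tmem45a*, *Kdelr3* and *Kctd17*. The share of all probes separate between K-LM and KPT was not counted, so that list only describes the genes.

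Over all passages the genes were seldom limited to the tail route. At P5, as a description, the K-LM means were above the T-LM means for all genes but *Kctd17*. The T-LM minus K-LM difference ran from -1.67 ± 1.01 (SE, *Nme4*) to 0.15 ± 0.68 (*Kctd17*). KPT P5 means were above those of T-LM for *Ncam1*, *Rgs19* and *Gfpt2*, and below for the rest, with *Pigz* above background in neither. At P4 the T-LM minus K-LM difference ran from -0.49 ± 0.99 (*Nme4*) to 0.99 ± 1.06 (*Ncam1*). From P1 to P6 *Tmem45a* passed the background call in 18 of 24 samples of T-LM, 10 of 17 of K-LM and 8 of 22 of KPT. *Ckap4* and *Nme4* were the most often dim in KPT, each above background in 4 of 22 samples, against 14 and 16 of 24 in T-LM and 7 and 9 of 17 in K-LM. *Kctd17* was the gene most often above background in KPT, with calls in 14 of 22 KPT, 18 of 24 T-LM and 11 of 17 K-LM samples. *Pigz* was above background in 9 of 24 T-LM, 9 of 17 K-LM and 5 of 22 KPT samples. The brightest single sample of *Ncam1* (-1.52) and *Rgs19* (-2.53) was KPT P5 replicate 1, and that of *Ckap4* (-3.41) was KPT P1 replicate 4. For *Tmem45a*, *Kdelr3*, *Nme4*, *Kctd17* and *Gfpt2* it was T-LM P5 replicate 1 (*Gfpt2* was level there with KPT P5 replicate 1, at -3.07), and for *Pigz* T-LM P6 replicate 4.

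The 8 genes other than *Pigz* varied together sample by sample. Over the 65 RNA samples, which share slides and passages, Pearson's r of their 28 pairs ran from 0.842 to 0.969 with a median of 0.926, whereas the 8 pairs with *Pigz* ran from 0.502 to 0.582. These are descriptions across samples that fall into bright and dim sets. Among 12670 probes of 10168 genes well above background in at least 50% of samples, the 2 most like *Kdelr3* were *Maged2* (r = 0.984) and the D-type cyclin *Ccnd2* (0.981). Those most like *Tmem45a* were *Rtl8c* (0.972) and *Rtl8b* (0.97), a pair of near-identical retrotransposon-derived genes whose probes may not be told apart. *Ncam1* was closest to *Pxdn* (0.964) and *Col4a1* (0.959), which encode peroxidasin and a basement membrane collagen. *Kctd17* was closest to *Dbn1* (0.955) and *Sulf1* (0.954), *Rgs19* to *Ripk3* (0.974) and *Pygl* (0.966), *Nme4* to *Pfn2* (0.978) and *Tmem45a* (0.968), *Gfpt2* to *Pygl* (0.941) and *Rhoj* (0.939), and *Ckap4* to *Kdelr3* (0.961) and *Rhoj* (0.959). *Pigz* had no close match: *Mapkapk3* (0.748) and *Cxcl16* (0.731) came first.

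Markers of fibroblasts moved with the same 8 genes. The mean level of 10 fibroblast markers, among them *Col1a1*, *Col1a2*, *Col3a1*, *Dcn* and *Pdgfra*, correlated with each of the 8 genes at r = 0.885 to 0.947 (Spearman's rho 0.864 to 0.952) over 65 samples, and at 0.873 to 0.942 without the 2 samples farthest out. Within routes r was 0.901 to 0.976 in KPT (n = 22), 0.941 to 0.979 in T-LM (n = 24) and 0.854 to 0.939 in K-LM (n = 17). Over only the samples in which the gene was well above background it was 0.586 to 0.904. The markers themselves followed the course of the genes. At P0 1 of the 10 was above background, and 9 were not: *Pdgfra*, *Pdgfrb*, *Col1a1*, *Col1a2*, *Col3a1*, *Dcn*, *Lum*, *Thy1* and *Fap*. The list mean was -7.54 and -7.45 at P0, from -6.49 to -1.49 at T-LM P1, -5.91 and -5.44 at P2, -7.10 to -5.35 at P3, -3.65 to -1.93 at P4, -4.13 to 0.05 at P5 and -3.51 to -2.03 at P6, where all 10 markers were above background in at least 1 sample. In KPT P6 the list stood at -5.58 to -4.77 with *Pdgfra* and *Fap* below background in all 5 samples, and in K-LM P6 at -4.75 to -3.38 with *Lum* below in all 3. Bulk RNA cannot tell more cells of a type from more RNA per cell, and the part of these markers in the results was not tested.

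Other lists moved less closely with the 8 genes over all samples, though leukocyte markers came near the fibroblast list within KPT. For 10 leukocyte markers r was 0.529 to 0.729 over all samples, 0.832 to 0.915 within KPT, 0.585 to 0.773 within T-LM and 0.217 to 0.533 within K-LM. That list was at -4.16 to -3.30 in T-LM P6 and -6.34 to -6.08 in K-LM P6. In K-LM P6 *Ptprc*, *Adgre1*, *Tyrobp*, *Fcer1g* and *Laptm5* were below background in all 3 samples, and 5 of the 10 markers were above it in all 3. At P0 the same markers were below background in every sample, and 5 of the 10 were above it in at least 1. For lung epithelium r was 0.211 to 0.330 and for endothelial markers 0.137 to 0.312. *Pigz* was different here too: in T-LM its r was 0.414 with the fibroblast list and 0.799 with the lung epithelium list (n = 24; 0.668 without the 2 farthest samples). Spearman's rho was closer between the lists, at 0.557 and 0.625. The 4 T-LM P6 samples were the highest in T-LM for both *Pigz* and the lung list, so that r leans on them. In K-LM r was 0.535 with the fibroblast list and -0.238 with the lung list (n = 17). In KPT it was 0.597 and 0.395 (n = 22; the last -0.165 without the 2 farthest samples). The 8 lung epithelium markers averaged -6.46 to -5.20 in T-LM P6, with *Sftpa1* and *Nkx2-1* below background in all 4, against -8.59 to -8.08 in KPT P6 and -8.32 to -8.20 in K-LM P6. The 3 KPT P1 samples with bright *Pigz* (replicates 3 to 5) had lung lists of -7.53, -7.54 and -8.48, and leukocyte lists of -2.82, -2.30 and -2.71, against leukocyte lists of -4.83 and -4.72 in replicates 1 and 2. *Sftpc*, *Sftpb* and *Ager* were among the lung markers below background in all 5 KPT P1 samples. Of the 8 lung markers, 3 were above it in at least 1 KPT P1 sample and 0 in all of them. The part of these markers in the *Pigz* levels was not tested.

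**Figure D3:**
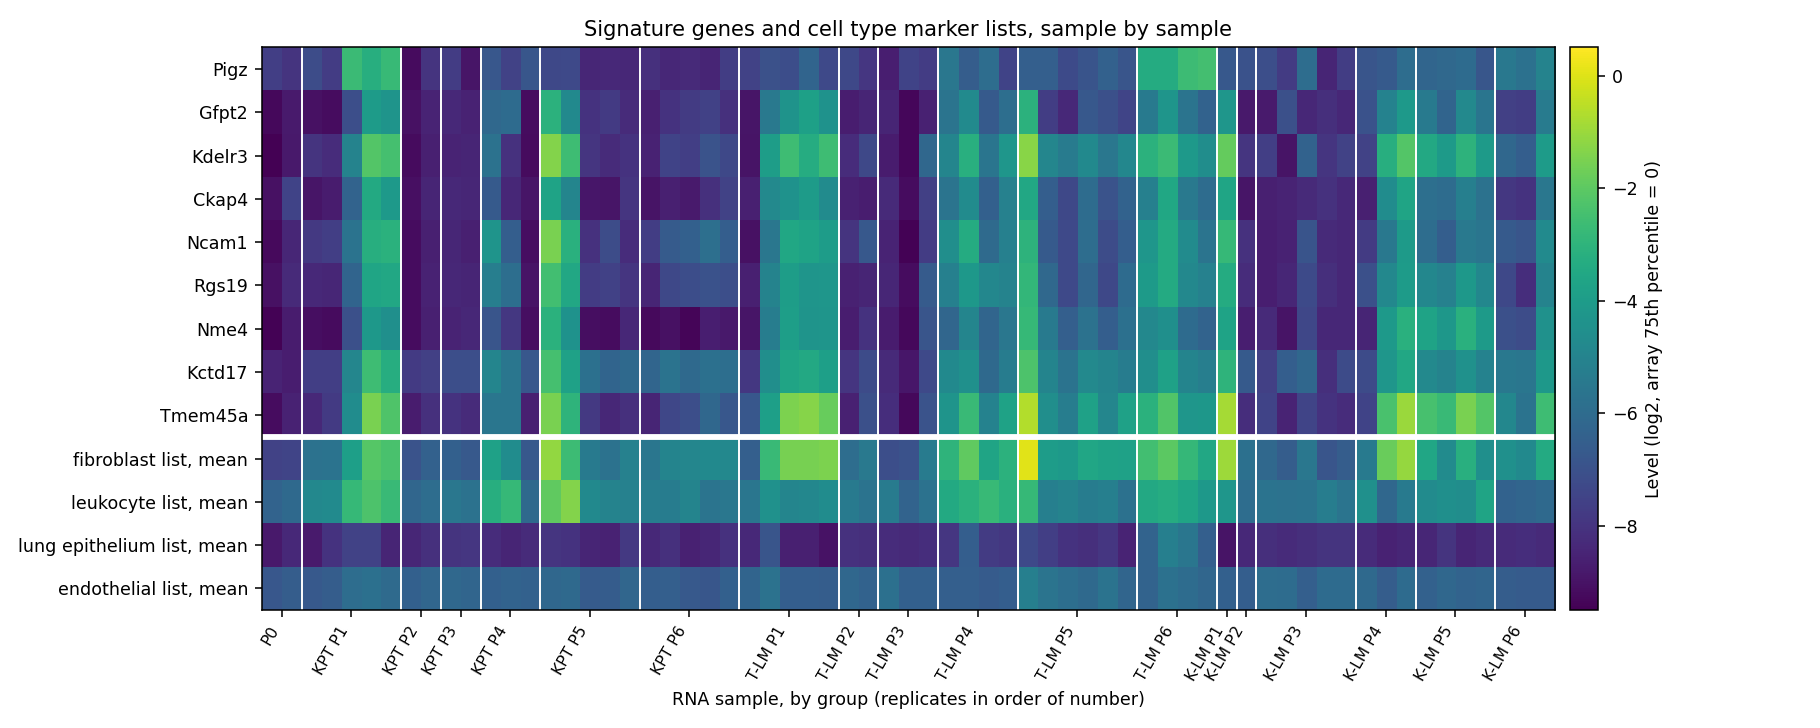
Level (log2, array 75th percentile set to 0) of the 9 genes and, below the white line, the mean of 4 cell type marker lists in each of 65 RNA samples, grouped by route and passage with replicates in order of number. Columns that are bright for the 8 genes other than *Pigz* are bright for the fibroblast list; *Pigz* is brightest in 3 KPT P1 and 4 T-LM P6 samples.

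**Figure D4:**
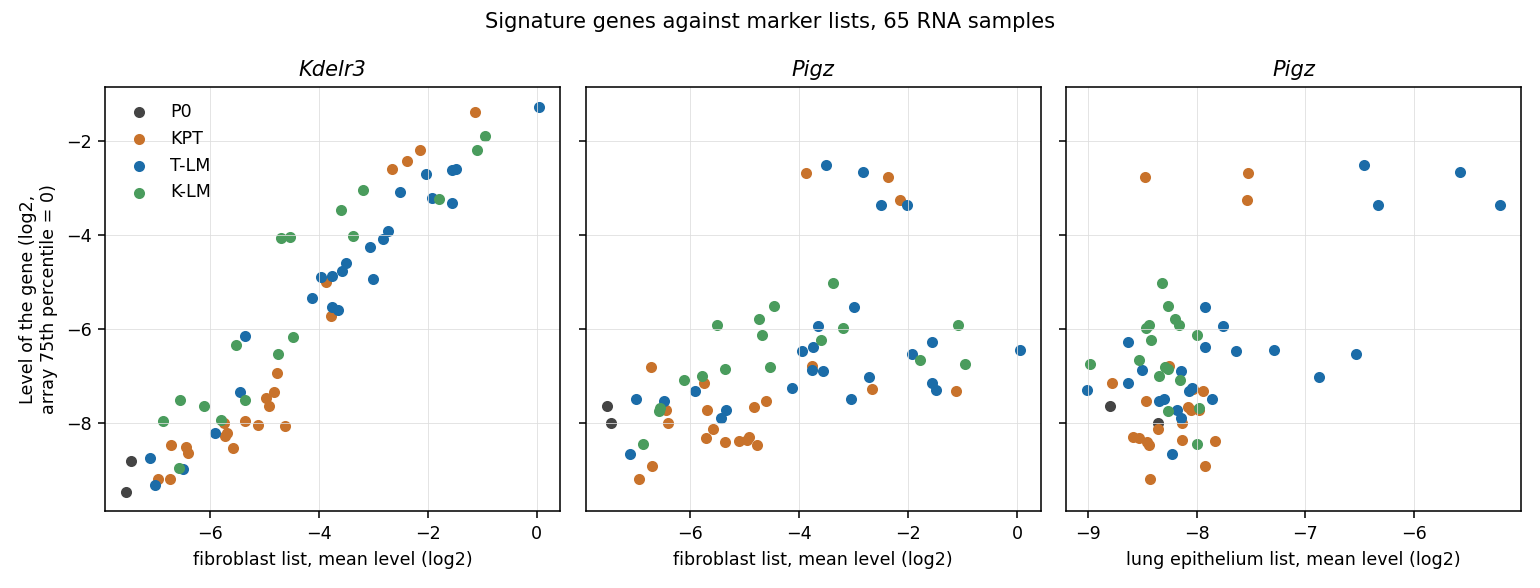
Level of *Kdelr3* and of *Pigz* against the mean level of a marker list, with 1 point per RNA sample (65 in all), coloured by route. *Kdelr3* rises with the fibroblast list along one line in all routes (r = 0.947), while the brightest *Pigz* samples stand off the fibroblast list and include the 4 T-LM P6 samples with the highest lung epithelium list.

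Partners of the 9 proteins were read from 9 lists: GPI anchor enzymes, the hexosamine pathway, retrieval to the endoplasmic reticulum and its chaperones, the Rgs, Nme, Kctd and Tmem45 families, and the partners of Ncam1 and Ckap4. From P0 to P6 in T-LM, 4 of 93 tested genes were called, all higher, against 4.63% of 23488 probes, and the median change was 0.15 against -0.01 for all probes. The 4 were *Rgs1* (4.08 ± 0.633, adjusted p = 0.000128 in limma, at least 5.45-fold), *Rgs10* (3.84 ± 0.742, 0.00136), *Nme5* (1.97 ± 0.442, 0.00523, at least 1.75-fold) and *Cntn1*, a contactin of the immunoglobulin family (3.62 ± 0.663, 0.000803, at least 7.54-fold). *Rgs1* and *Rgs10* are known from immune cells, and the leukocyte list was also higher in T-LM P6 than at P0 (-6.30 and -6.07). Their part in that was not tested.

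The share of partner genes called from P0 to P6 in T-LM was thus near that of all probes. By list in this contrast, of 23 GPI anchor genes 0 were called, with a median of 0.07, and the largest changes were *Pgap1* (0.95 ± 0.393, adjusted p = 0.157 in limma) and *Pigt* (-0.95 ± 0.359, 0.112). Of 12 hexosamine genes 0 were called, with *Gnpda2* at 2.28 ± 0.851 (0.106) and *Uap1l1* at -0.77 ± 0.319 (0.16). Of 14 retrieval and chaperone genes 0 were called, with *Pdia4* at -0.61 ± 0.420 (0.471) and *Hspa5*, the chaperone BiP, at 0.42 ± 0.304 (0.503). In the Kctd family 0 of 16 were called, led by *Kctd11* (1.20 ± 0.351, 0.0326) and *Kctd15* (-1.0 ± 0.365, 0.096), and of 4 Ckap4 partners 0, led by *Dkk3* (4.61 ± 1.36, 0.0344) and *Plat* (0.53 ± 0.462, 0.607). No Tmem45 relative was bright enough to be tested.

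Between T-LM and KPT at P6, 13 of 92 partner genes were called, 12 higher and 1 lower in T-LM, against 11.2% of 22072 probes, with a median of -0.06. The Rgs family gave 5 of 11 (*Rgs1*, *Rgs2*, *Rgs16*, *Rgs17* and *Rgs20*) and the Ncam1 partners 5 of 7. Of the latter *St8sia4*, which puts polysialic acid on Ncam1, was higher by 3.04 ± 0.209 (limma, adjusted p = 1.207e-08, at least 2.58-fold), as were *Alcam*, *Nrcam* and *Gdnf*, while *L1cam* was lower by -1.20 ± 0.299 (0.00784). *Gnpda2*, *Nme3* and *Dkk3* were the other 3. Of 10 other genes of the same signature with a probe, 6 were called in each of these contrasts, all higher in T-LM P6. Those genes were picked by the study on these samples, so the count is not independent evidence.

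The 2 genes with more than 1 probe differed in how far their probes went together. The other *Rgs19* probes followed the brightest (r = 0.975 and 0.972 over 65 samples) and were above background in 28 and 24 samples. Of the other *Ncam1* probes 1 was above background in 9 samples (r = 0.775) and 1 in 0, so the *Ncam1* values rest on 1 probe.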

How the data were processed

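Total RNA from RENCA cells was hybridised to Agilent mouse expression arrays in 1 colour (Cy5): 65 RNA samples on 70 arrays, 5 of them repeats. Per the file headers, the deposited intensity values are Agilent Feature Extraction processed signals, already background-subtracted, without normalization between arrays; the median and background intensities come from the same files. The authors' series values are log2 values, deposited after between-array normalization, and matched quantile-normalized log2 median signals to within 0.107. They served as an alternative.

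Of 59305 gene spots, spots of 1 probe were averaged. A level is the log2 processed signal less the log2 75th percentile of its array over the 12209 probes well above background on every array. Over all gene probes, the 75th percentiles of the arrays ran from 128.4 to 855.7 intensity units before scaling. The number of arrays limits the precision. Between 25.2% and 55.2% of probes were detected per array. Gene symbols came from the transcripts named for the probes in the files, matched to RefSeq GRCm38.p6: 28026 probes had 1 symbol and 27655 none. Tests used limma 3.58.1 in R 4.3.3 with statmod 1.5.0 and Benjamini-Hochberg adjustment, on probes that passed the background call on 2 or more arrays in the fit; calls are at an adjusted p of 0.01 or less. Fits with the late slide (scanner software 12.0.2.2 against 11.0.1.1 elsewhere) carry a term for it, with arrays of 1 RNA treated as correlated (duplicateCorrelation, 4000 probes). Scripts were tested on simulated data. A group not above background on any array has only a bound: "at least" folds set it, per array, at the higher of its own signal and the lowest passing signal.

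All 9 genes were named at their brightest probe, with the 2 genes most like each, the called partner genes and, where a list had none, its 2 largest changes; partners called against KPT at P6 are also named. The members and lists were chosen with earlier results of these data known. Same-numbered samples did not deviate together in every pair, so numbers were not used to pair them. Alternatives covered scaling, background correction (normexp, offset 50, on median signals), filters, covariates, blocks and leaving out each replicate.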

Additional observations from a re-analysis of the deposited data

Results flagged for a closer look

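Of 81 sets of 4 to 10 samples (1 gene in 1 group), 15 held a sample far from the others by Dixon's test, which by chance flags about 1 set in 20. The sets are not independent, since genes that vary together are flagged together in 1 sample. That rate is therefore no measure of how unusual the 15 are. T-LM P5 replicate 1 stood above the other 5 samples for all 8 genes that moved together. *Tmem45a* was at -0.65 (others -5.25 to -3.77), *Ncam1* at -3.02 (-7.31 to -5.92), *Kctd17* at -2.28 (-5.68 to -4.79) and *Kdelr3* at -1.26 (-5.54 to -4.76). *Rgs19* was at -2.87 (-7.32 to -6.02), *Ckap4* at -3.49 (-7.33 to -5.97), *Gfpt2* at -3.07 (-8.34 to -6.75) and *Nme4* at -2.82 (-6.50 to -5.36). The mean of the fibroblast markers in this sample was 0.05, the highest of the T-LM P5 samples.

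T-LM P1 replicate 1 stood below the other 4 samples for 5 genes: *Kctd17* at -7.89 (others -4.54 to -3.48), *Kdelr3* at -8.98 (-3.92 to -2.59), *Rgs19* at -8.62 (-5.04 to -3.95), *Ckap4* at -8.64 (-4.78 to -4.01) and *Nme4* at -8.93 (-5.25 to -3.91). Its fibroblast list was at -6.49, the lowest of the T-LM P1 samples. The other 2 flags were *Ncam1* in K-LM P3 replicate 3, at -6.91 (others -8.67 to -8.32), and *Rgs19* in KPT P6 replicate 1, at -8.47 (-7.32 to -6.99). None of the T-LM P1 replicate 1, K-LM P3 or KPT P6 values named here was well above background.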

How the results depend on the processing

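Over 933 recalculations of single genes, 871 kept direction and side of the threshold, 29 lost a call, 4 gained one and 29 changed sign, none of these 29 a called result. The count of called genes from P1 to P6 in KPT went from 1 to 0 with the long mRNA balance as covariate (12 long mRNAs against ribosomal protein genes), and ranged from 0 to 1 leaving out each replicate. From P3 to P6 in K-LM it went from 2 to 1 with the percentile over all probes, with the authors' series values, with normexp and quantile, with no filter and with the replicate block, and to 0 with all arrays in 1 model and with the balance covariate; leaving out each replicate gave 0 to 4 (4 without K-LM P3 replicate 3). Between K-LM and KPT at P5 it went from 1 to 0 with all arrays in 1 model and with the balance covariate, and to 2 (*Nme4* and *Pigz*) with the replicate block, with 0 to 1 leaving out replicates, the 0 where *Pigz* no longer passed the filter on dim probes. At P6 it went from 3 to 1 with all arrays in 1 model and on the late slide only. The replicate block changed no other count of called members. No value was possible for the members with the filter on all arrays, since none was well above background on all of them. Partner genes called from P0 to P6 in T-LM went from 4 to 0 with the filter on all arrays and to 7 with P1 left out (chosen after seeing the data), and to 2 without P0 replicate 2 (2 to 4 over replicates). Against KPT at P6 they went from 13 to 2 with the filter on all arrays and to 4 with all arrays in 1 model.

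Signs that changed, all in uncalled results: at P1, leaving out samples, *Ncam1* ranged from -0.25 to 1.31 and *Kctd17* from -0.07 to 1.34. From P3 to P6 in KPT, *Pigz* was at -0.02 (percentile over all probes), -0.05 (series values), -0.04 (normexp and quantile) and -0.32 (replicate block), and from -0.40 to 0.78 without single replicates; *Ckap4* was at -0.15 (percentile over all probes) and -0.14 to 0.18 without single replicates; *Ncam1* was at -0.44 with its second brightest probe; *Nme4* was at 0.53 (series values), 0.33 (normexp and quantile) and 0.48 (balance covariate). Between K-LM and KPT at P5, *Ncam1* was at 0.59 (replicate block) and -0.91 to 0.77 without single replicates, *Kctd17* ranged from -0.31 to 0.65 without single replicates, and with the balance covariate *Kctd17* was at -0.79, *Rgs19* at -0.08, *Ckap4* at -0.04 and *Gfpt2* at -0.03. At P6, *Rgs19* ranged from -0.09 to 1.5 without single replicates. The cause was not tested.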
